A study of Mus musculus with 8 samples.

Results

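The potassium channel genes of the mouse, here every protein-coding gene whose symbol begins with *Kcn*, were compared among 4 hypothalamic nuclei, the arcuate nucleus (Arc), the ventromedial nucleus (VMH), the dorsomedial nucleus (DMH), and the lateral hypothalamus (LH). A probe was counted as a member when its RefSeq accession led to such a gene, and this gave 127 probes of 94 genes among the 55681 probes and 20284 named genes of the array. All 94 genes had a probe, 62 of them 1 probe and 32 more than 1. Tissue was cut by laser microdissection from 2 female C57BL/6J mice aged 3 months, and each nucleus was hybridized to 2 1-color arrays (Arc1 and Arc2, VMH1 and VMH2, DMH1 and DMH2, LH1 and LH2). Which arrays came from the same mouse is not given in the sources used here, and the number of an array coincided with its row on the slide. The p-values therefore measure only the spread between these arrays, and their number limits the precision.

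Potassium channels let potassium ions leave a neuron and so set its resting potential, end its action potentials, and pace its firing. Voltage-gated channels open on depolarization and are built from pore-forming subunits, from silent subunits that form no channel alone, and from cytoplasmic auxiliary subunits. Inward rectifiers and tandem-pore channels carry current near rest, and calcium-activated channels follow the calcium that enters during spikes. In the hypothalamus, the channels closed by ATP are known for glucose sensing, those opened by G proteins for inhibition by transmitters, and the M-current channels for the control of firing by peptides and hormones.

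Differences were tested with limma, and a probe was called at a p adjusted over all probes tested of under 0.05. Of the 22 genes that differed among the nuclei by its F-test, 13 had their highest mean in the VMH and 12 their lowest mean in the Arc. Of all probes called by this F-test, 29.3% were highest in the VMH and 43.9% lowest in the Arc. *Kcnk4*, *Kcns2*, *Kcnv1*, *Kcnh3*, and *Kcnj5* were higher in the VMH than in any other nucleus, 5 of the 84 probes tested against 0.54% of all probes tested. Of these 5, *Kcnv1* and *Kcnh3* entered the tests through the VMH alone and were dim elsewhere by construction. *Kcnk4*, *Kcns2*, and *Kcnn2* were lower in the Arc than elsewhere (3 probes, against 0.457% of all), and *Kcnip2* was lower in the LH than elsewhere (1 probe, against 0.163%). With no scaling between arrays, the calls of *Kcnk4*, *Kcns2*, and *Kcnj5* in the VMH and of *Kcnip2* in the LH were lost. With the array number as a block in the fit, those of *Kcnk4* in the VMH and the Arc and of *Kcnip2* in the LH were lost. *Kcna1* exceeded its Arc signal at least 17.0-fold in the VMH and at least 25.9-fold in the LH. No member was higher in the Arc (0.339% of all) or the LH (0.485%) or lower in the VMH (0.485%) than elsewhere, and none was set apart in the DMH in either direction (0.0208% higher and 0.0173% lower). The calls in 1 nucleus against each other covered 7 probes in all. Their number fell without any 1 Arc, VMH, or DMH array and rose without LH1 or LH2. Over all probes tested, the 2 LH arrays correlated at 0.938, against 0.971 to 0.981 for the 2 arrays of each other nucleus. The part of this in the calls was not tested. Of the 72 pairwise differences called for *Kcn* probes, few were kept in all 8 fits without 1 array. These were those of *Kcna1*, *Kcnk4*, and *Kcnn2* between the Arc and both the VMH and the LH, of *Kcna2* and *Kcns2* between the Arc and the VMH, and of *Kcnc1* between the Arc and the LH. Those of *Kcnv1* between the VMH and both the DMH and the LH were kept too, but were lost once dim signals were raised to the lowest measured one.

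All signals are intensities of the red channel, divided by the 75th percentile of their array and rescaled so that the array factors have a geometric mean of 1. The lowest signal that the scanner software called well above background was 79.3 to 132 on this scale, depending on the array, and 69 to 81 of the *Kcn* probes were well above background on an array. Genes listed for each nucleus were high on its own arrays, as a description only, since the study picked several of them, the DMH genes included, from these same arrays. The summed signal of the Arc genes was 145906 to 155249 on the Arc arrays and at most 6017 elsewhere, that of the VMH genes 17676 to 19750 on the VMH arrays and at most 775 elsewhere, and that of the DMH genes 8377 to 11001 on the DMH arrays and at most 923 elsewhere. The LH genes *Hcrt* and *Pmch* summed to 123622 and 133754.5 on the LH arrays, but also to 72193 and 62914 on the DMH arrays. Genes of the paraventricular nucleus summed to 14459 on LH2 and 6971 on Arc1, against 541 to 5355 on the other 6 arrays.

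Cell types differed between the nuclei as well. Summed over 9 neuron markers, the signal was 168655 to 172648 on the Arc arrays, 236012 to 261524 on the VMH arrays, 187716 to 193318 on the DMH arrays, and 221996 to 229106 on the LH arrays, and 4 of the 9 genes, *Rbfox3* and the neurofilament genes *Nefl*, *Nefm*, and *Nefh*, differed among the nuclei by the F-test. All 11 oligodendrocyte markers differed, with a summed signal of 12753 to 20873 in the Arc, 34291 to 43034 in the VMH, 31116 to 31167 in the DMH, and 119334 to 129147 in the LH. In pieces of tissue, fewer cells of a type and less RNA per cell cannot be told apart. Markers of ependymal cells and tanycytes ran the other way, their 6 genes summing to 5232 and 5688 in the Arc and 2423 to 3094 elsewhere, and *Rax* read 1738 and 1360 in the Arc against 28.4 to 120 on the other arrays, all but 1 of which were not well above background (limma F-test, adjusted p = 0.0123). The summed neuron and oligodendrocyte markers were lowest in the Arc, the nucleus in which 12 of the 22 called *Kcn* genes and 43.9% of all called probes were lowest. The part of these cell types in the *Kcn* differences was not tested.

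On all 8 arrays, 60 of the 127 *Kcn* probes (47.2%) were well above background, and 40 (31.5%) were so on none. Among 25954 probes of protein-coding genes, 54.4% were well above background on all 8 arrays and 30.1% on none. The tests took the 84 *Kcn* probes (66.1%), of 65 genes, for which both arrays of some nucleus gave a signal well above background. A probe that passed through 1 nucleus alone was not well above background on both arrays of any other by construction, which applied to 10 of the 84 probes and to 5 of the 26 called by the F-test. No tested probe was left for 29 genes, and 26 had no probe above background on any array. The latter included *Kcnj8*, the pore of the vascular form of the ATP-sensitive channel, *Kcnn1*, a calcium-activated channel of neurons, and *Kcnj13* and *Kcne2*, a pore and an auxiliary subunit best known from epithelia such as the choroid plexus.

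By the limma F-test, 26 of the 84 probes, of 22 genes, differed among the 4 nuclei at an adjusted p under 0.05. The share over all 28894 probes tested was 8.34%, and over the 16913 tested probes of protein-coding genes it was 10.5%. The mean was highest in the VMH for 15 of the 26 probes, in the LH for 8, in the Arc for 3, and in the DMH for 0, and it was lowest in the Arc for 13, in the DMH for 8, in the LH for 4, and in the VMH for 1. Over all 2409 probes called, the mean was highest in the VMH for 29.3%, in the LH for 39.8%, in the Arc for 23.2%, and in the DMH for 7.68%, and it was lowest in the Arc for 43.9%, in the DMH for 10.5%, in the LH for 20.2%, and in the VMH for 25.4%. The F-test called fewer *Kcn* probes without any 1 Arc, VMH, or DMH array and more without LH1 or LH2. The number called over all probes tested moved in the same direction in each of these fits.

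Between the Arc and the VMH, 22 probes were called, against 5.93% of all probes tested. Of these, 19 were higher in the VMH (3.52% of all probes) and 3 in the Arc (2.4%). The median of the 84 log2 differences, Arc minus VMH, was -0.40, and that over all probes tested was 0.01. The count was 9 without Arc1, 6 without Arc2, 8 without VMH1, and 8 without VMH2, and with no scaling between arrays 17 probes were higher in the VMH and 0 in the Arc.

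Between the Arc and the LH, 24 probes were called (9.34% of all), 16 higher in the LH (6.02%) and 8 higher in the Arc (3.32%). The median log2 difference, Arc minus LH, was 0.02, against 0.05 over all probes. The count was 5 without Arc1, 6 without Arc2, and 14 without any 1 of the VMH or DMH arrays. With no scaling between arrays, 11 probes were higher in the LH and 2 in the Arc. A limma fit of only these 2 nuclei called 7 *Kcn* probes, and 823 of all 28894 probes tested.

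Between the VMH and the DMH, 8 probes were called (2.04% of all), each of them higher in the VMH (1.1%) and 0 in the DMH (0.945%), and the median log2 difference, VMH minus DMH, was 0.32 against 0.02. That count was 1 without VMH1 or without VMH2, 3 without DMH1, 2 without DMH2, and 14 without LH1 or without LH2. Between the VMH and the LH, 12 probes were called (5.28% of all), 10 higher in the VMH (2.24%) and 2 higher in the LH (3.04%), and the count was 1 without VMH1 and 2 without VMH2. With no scaling between arrays, 7 were higher in the VMH and 0 in the LH. A limma fit of only the VMH and the LH called 0 *Kcn* probes, and 275 of all 28894 probes tested.

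Fewest calls were made against the DMH. Between the Arc and the DMH there were 3 (1.26% of all probes), each higher in the DMH (0.727%) and 0 higher in the Arc (0.533%). Between the DMH and the LH there were 3 (0.924%), 1 higher in the DMH (0.26%) and 2 in the LH (0.664%). Without 1 array, the calls between the Arc and the DMH were 0 to 7, being 0 without Arc2, DMH1, or DMH2, 1 without VMH1 or VMH2, and 7 without LH1 or LH2. The calls between the DMH and the LH were fewer without any 1 Arc, VMH, or DMH array and more without LH1 or LH2. A limma fit of only these 2 nuclei called 0 *Kcn* probes and 0 of all 28894 probes tested.

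**Figure D1:**
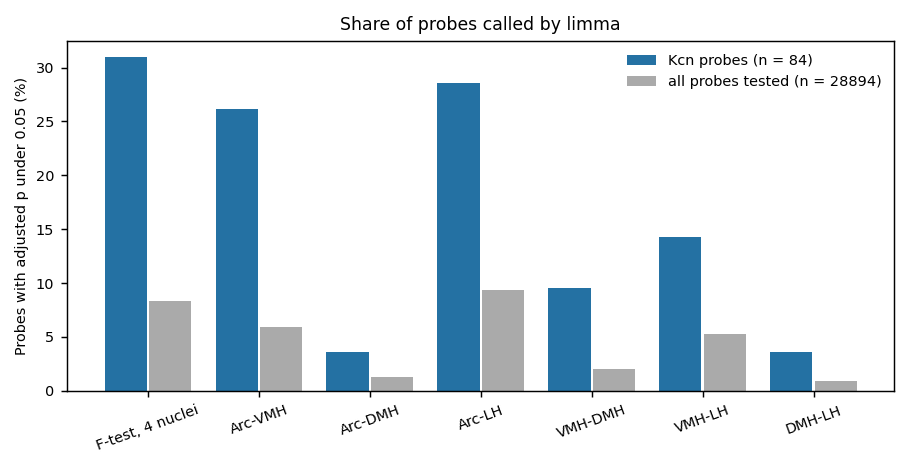
Share of probes with an adjusted p under 0.05 (y axis, percent) in the limma F-test and in each pair of nuclei (x axis), for the 84 *Kcn* probes (blue) and for all 28894 probes tested (gray). The *Kcn* share was above that of all probes in each of these 7 comparisons, with 31% against 8.34% in the F-test.

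**Figure D2:**
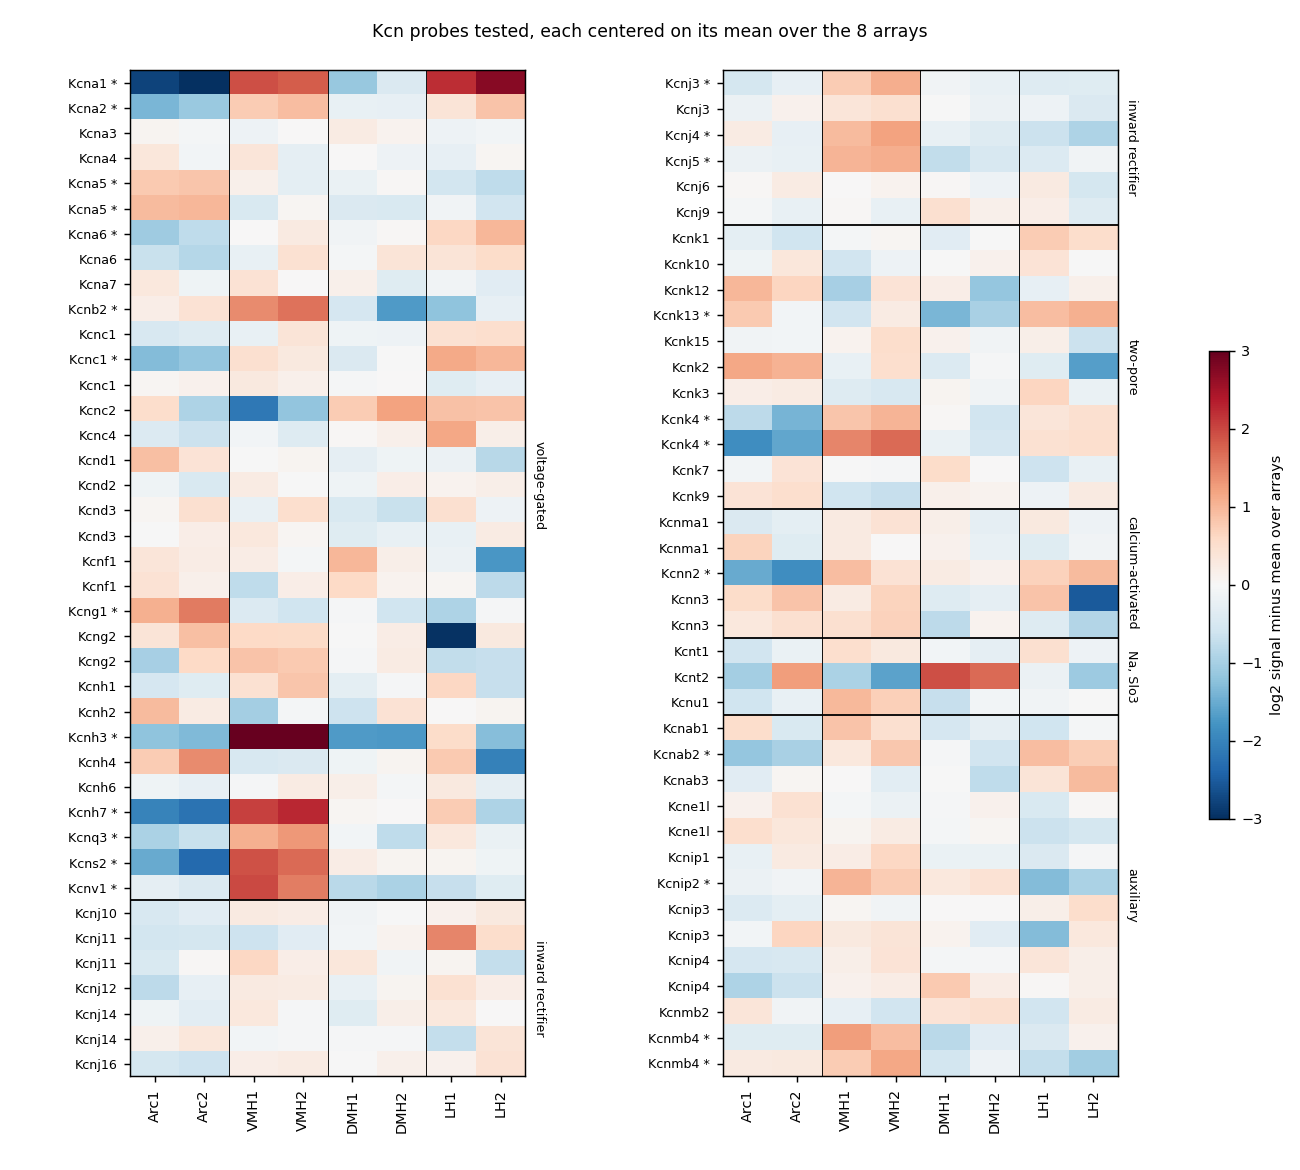
log2 signal of 79 of the 84 tested *Kcn* probes (rows, ordered by channel class and then by symbol) on the 8 arrays (columns), each row centered on its own mean, with red above and blue below it and colors capped at -3 and 3. A star marks the probes that differed by the F-test. Blue cells on the Arc arrays beside red cells on the VMH arrays are seen for *Kcna1*, *Kcnh7*, *Kcns2*, and *Kcnk4*.

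Without any test, both VMH arrays lay above the other 6 arrays for 19 of the 84 probes (8.09% of all probes), both LH arrays for 12 (12.1%), both Arc arrays for 8 (8.61%), and both DMH arrays for 4 (2.19%). Both Arc arrays lay below the other 6 for 21 probes (10.9%), both LH arrays for 9 (9.21%), both DMH arrays for 5 (2.74%), and both VMH arrays for 4 (7.32%). In percentage points, the counts stood furthest above those of all probes for high VMH signals, 22.6% of the *Kcn* probes, and low Arc signals, 25%.

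Among the classes, the calls by the F-test fell on 15 of 38 tested voltage-gated pore and silent probes, 3 of 13 inward rectifier probes, 3 of 11 tandem-pore probes, 1 of 5 calcium-activated probes, 4 of 14 auxiliary probes, and 0 of 3 probes of the sodium-activated channels and their sperm relative *Kcnu1*. Within the voltage-gated class they fell, among others, on 5 of 9 probes of the Shaker family, 3 of 7 of the silent subunits, 2 of 6 of the EAG family, and 0 of 4 of the Shal family. Over all probes tested the share called was 8.34%, and the classes and families were not tested against each other.

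*Kcnk4* encodes a tandem-pore channel opened by stretch and by arachidonic acid. Its brighter probe had a signal of 161 and 199 on the Arc arrays, 1629.7 and 1909.5 on the VMH arrays, 512 and 414 on the DMH arrays, and 803 and 835 on the LH arrays. The 4 nuclei did not overlap, in the order VMH, LH, DMH, and Arc. The log2 difference, Arc minus VMH, was -3.30 (SE 0.22, limma adjusted p = 0.000795), and Arc minus LH was -2.19 (adjusted p = 0.00288). VMH minus DMH was 1.94 (adjusted p = 0.00892), VMH minus LH 1.11 (adjusted p = 0.0372), and Arc minus DMH -1.36 (adjusted p = 0.0425). The calls against the Arc from the VMH and the LH held without any 1 array, but VMH minus LH was lost in each of the 8 fits without 1 array (0.0509 to 0.168), Arc minus DMH without any 1 of the Arc, VMH, or DMH arrays (0.0899 to 0.264), and VMH minus DMH without VMH1 (0.0567), VMH2 (0.0727), or DMH2 (0.0652). Its dimmer probe had the same order of means, 219 and 144 in the Arc, 671 and 768 in the VMH, 387 and 255 in the DMH, and 484 and 527 in the LH, and was called higher in the VMH than in the Arc (adjusted p = 0.0116) and in the LH than in the Arc (adjusted p = 0.0247). The first of these was lost without Arc2 (0.0799), VMH1 (0.0716), or VMH2 (0.0792), and the second without any 1 of the Arc or VMH arrays (0.051 to 0.129).

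*Kcnj5*, a pore subunit of the inward rectifiers opened by G proteins, had a signal of 632 and 613 in the Arc, 1439 and 1519 in the VMH, 430.0 and 513 in the DMH, and 538 and 667 in the LH. Both VMH arrays lay above the other 6, and the other nuclei overlapped or nearly so. VMH minus DMH was 1.66 on the log2 scale (SE 0.21, limma adjusted p = 0.0126), VMH minus LH 1.30 (adjusted p = 0.019), and Arc minus VMH -1.25 (adjusted p = 0.0187). Its call by the F-test (adjusted p = 0.0142) was lost without VMH1 (0.0874), VMH2 (0.0926), Arc1 (0.056), or Arc2 (0.056). Each pairwise call was lost without VMH1 or VMH2, Arc minus VMH also without either Arc array, and VMH minus DMH without either DMH array. With no scaling between arrays, VMH minus DMH and VMH minus LH were lost too.

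*Kcns2* and *Kcnv1* encode silent subunits, which join pore subunits of the Shab family and change how these gate. *Kcns2* had a signal of 56.7 and 32.5 in the Arc, 614 and 528 in the VMH, 189 and 171 in the DMH, and 173 and 148 in the LH. It was not well above background on either Arc array, and its VMH signal exceeded that of the Arc at least 5.04-fold (limma adjusted p = 0.00131). VMH minus DMH was 1.66 (adjusted p = 0.0414), and VMH minus LH 1.83 (adjusted p = 0.0186). The DMH exceeded the Arc at least 1.59-fold (adjusted p = 0.0246), and the LH, where 1 array was well above background, was called above the Arc as well (adjusted p = 0.0113). VMH minus DMH was lost without any 1 of the VMH or DMH arrays (0.156 to 0.242), VMH minus LH without VMH1 (0.125) or VMH2 (0.0798), the call of the DMH over the Arc without Arc2 or any 1 of the VMH or DMH arrays (0.0623 to 0.168), and that of the LH over the Arc without Arc2 (0.054). With dim signals set to the detection limit, these calls of the Arc against the DMH (0.287) and the LH (0.206) were also lost. *Kcnv1* was measured on the VMH arrays only, through which alone it entered the tests, at 157 and 116, with 33 and 29.3 in the Arc, 22.9 and 20.6 in the DMH, and 24.4 and 30.8 in the LH. Its VMH signal lay near the detection limit, being at least 1.19-fold above the Arc (adjusted p = 0.0049), 1.43-fold above the DMH (adjusted p = 0.00384), and 1.32-fold above the LH (adjusted p = 0.00497). Once signals below the detection limit were set to it, its F-test call did not hold (adjusted p = 0.599). Nor did its pairwise calls against the Arc (0.72), the DMH (0.565), and the LH (0.493).

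*Kcnh3*, a voltage-gated channel of the EAG family found in the forebrain, was well above background on both VMH arrays, at 741 and 645, and on no other array, so that it entered the tests through the VMH alone. The other signals were 29.9 and 27.7 in the Arc, 21.3 and 20.7 in the DMH, and 102 and 28.2 in the LH. The VMH was at least 6.11-fold above the Arc (limma adjusted p = 0.0051), 7.33-fold above the DMH (adjusted p = 0.00652), and 5.97-fold above the LH (adjusted p = 0.0129), values that are not independent of this filter. Without VMH1 the F-test gave an adjusted p of 0.056. The call against the Arc was lost without Arc2 (0.051), that against the DMH without VMH1 (0.0608), VMH2 (0.0541), or DMH1 (0.0557), and that against the LH without VMH1 (0.095) or VMH2 (0.0702). *Kcnh3* overlaps the gene *Mcrs1* in the annotation, and the arrays do not tell overlapping transcripts apart beyond the probe itself.

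*Kcnh7*, another member of the EAG family, read 40 and 34.3 in the Arc, 662 and 771 in the VMH, 167 and 162 in the DMH, and 273 and 84.9 in the LH. The VMH exceeded the Arc at least 6.32-fold (limma adjusted p = 0.0051), whereas the LH arrays lay on either side of the DMH arrays. Its F-test call (adjusted p = 0.013) was lost without any 1 of the Arc or VMH arrays, and the call of the VMH over the Arc without Arc2. Arc minus LH was called as well, at -2.04 (adjusted p = 0.0477). That call was lost without any 1 Arc, VMH, or DMH array and with dim signals set to the detection limit (0.204). *Kcnb2*, a pore subunit of the Shab family, was measured on both VMH arrays, at 217 and 252, and on no other array, and likewise entered the tests through the VMH alone, with 93.8 and 109.6 in the Arc, 57.9 and 25.1 in the DMH, and 35.4 and 68.6 in the LH. The VMH exceeded the DMH at least 2.48-fold (adjusted p = 0.0399) and the LH 2.29-fold (adjusted p = 0.0384), and its F-test call (adjusted p = 0.0395) was lost without Arc1 (0.111), Arc2 (0.11), VMH1 (0.15), VMH2 (0.16), or DMH2 (0.056), the pairwise calls being lost without these too, save VMH minus LH without DMH2, and VMH minus LH also without LH1 (0.0785).

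The sequences before a transcript start of the genes called in 1 nucleus against each other nucleus, *Kcnn2* being left out beforehand, were taken from RefSeq (GRCm38.p6). This gave windows for *Kcnk4*, *Kcnj5*, and *Kcnip2*. They are shown because *Kcnk4* and *Kcnj5* are among the 5 genes called higher in the VMH than elsewhere, and *Kcnip2* is the gene called lower in the LH. Each line holds the 250 bases before that start, 5′ to 3′ on the strand of the gene, which is the minus strand for all 3, with chr19:6934516-6934765 for *Kcnk4*, chr9:32344345-32344594 for *Kcnj5*, and chr19:45816064-45816313 for *Kcnip2*. The starts lie inside the annotated spans of the genes, which on this strand begin at 6934883 for *Kcnk4*, 32344380 for *Kcnj5*, and 45816422 for *Kcnip2*, so that the windows of *Kcnk4* and *Kcnip2* lie wholly within these spans and that of *Kcnj5* in part. The capitals mark matches on either strand to the GC box (GGGCGG) or the E-box (CAGCTG), none of which overlap.
Kcnk4: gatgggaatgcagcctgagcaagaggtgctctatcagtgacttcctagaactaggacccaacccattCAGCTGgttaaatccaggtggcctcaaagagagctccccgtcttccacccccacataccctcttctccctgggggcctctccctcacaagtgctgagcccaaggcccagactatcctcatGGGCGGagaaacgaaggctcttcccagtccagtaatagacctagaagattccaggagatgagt
Kcnj5: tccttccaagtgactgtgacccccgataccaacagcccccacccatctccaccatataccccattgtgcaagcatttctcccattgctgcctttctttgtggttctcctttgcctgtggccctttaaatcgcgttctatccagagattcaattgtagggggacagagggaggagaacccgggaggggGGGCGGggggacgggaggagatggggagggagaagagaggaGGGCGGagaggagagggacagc
Kcnip2: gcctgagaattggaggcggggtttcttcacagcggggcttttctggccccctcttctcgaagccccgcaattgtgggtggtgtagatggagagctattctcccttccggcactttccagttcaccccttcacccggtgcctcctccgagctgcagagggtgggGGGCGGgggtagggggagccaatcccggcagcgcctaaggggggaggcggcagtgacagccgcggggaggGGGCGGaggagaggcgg

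The windows of *Kcnk4*, *Kcnj5*, and *Kcnip2* held 54.8%, 58.0%, and 66.8% G and C. Windows were given for 69 of the 94 *Kcn* genes and for 27025 genes in all. The GC box was found in a window of 41 of the 69 *Kcn* genes (59.4%) and of 35.4% of all genes, the E-box in 17 (24.6%) and 14.7%, and the half-site of the VMH factor SF-1, AAGGTCA, in 3 (4.35%) and 4.70%. The last was in neither of the windows of the VMH genes *Kcnk4* and *Kcnj5*, which says only that these letters are not in those 250 bases. The median share of G and C was 58.6% for the *Kcn* windows and 52.4% for all windows.

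*Kcna1*, a delayed rectifier subunit of the Shaker family found in axons, had a signal of 76.8 and 26.4 in the Arc, where neither array was well above background, 2009.8 and 1846 in the VMH, 238 and 388 in the DMH, and 2436 and 3517 in the LH. The nuclei did not overlap, in the order LH, VMH, DMH, and Arc. The bounds on its fold over the Arc, given above, had limma adjusted p-values of 0.00253 for the VMH and 0.0018 for the LH, and DMH minus LH was -3.27 on the log2 scale (SE 0.51, adjusted p = 0.0445). The latter call was lost without VMH1 or VMH2 (0.101), DMH1 (0.233), or DMH2 (0.12).

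*Kcna2*, which forms mixed channels with *Kcna1*, read 194 and 231 in the Arc, 848 and 954 in the VMH, 430.1 and 422 in the DMH, and 657 and 909 in the LH. The VMH and the LH overlapped, and both were called above the Arc, with Arc minus VMH at -2.09 (SE 0.23, limma adjusted p = 0.00465) and Arc minus LH at -1.87 (adjusted p = 0.00522). *Kcnab2*, the cytoplasmic beta subunit that carries these channels into the axon, read 699.9 and 802 in the Arc, 1943 and 2756 in the VMH, 1523 and 1048 in the DMH, and 2975 and 2606 in the LH. Arc minus LH was -1.89 (adjusted p = 0.00904) and Arc minus VMH -1.63 (adjusted p = 0.0194). The F-test call of *Kcna2* was lost without Arc1 (adjusted p = 0.0607), and that of *Kcnab2* without Arc1 (0.116), Arc2 (0.0912), or VMH2 (0.0508). Of the pairwise calls, Arc minus LH was lost without Arc1 for *Kcna2* (0.051) and without Arc1 (0.0784) or Arc2 (0.0542) for *Kcnab2*, and Arc minus VMH of *Kcnab2* without any 1 of the Arc or VMH arrays (0.0594 to 0.141). *Kcnab2* overlaps *Nphp4* in the annotation.

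*Kcna5*, *Kcna1*, and *Kcna6* lie next to each other on 1 chromosome, with no other protein-coding gene between them, and did not share a pattern. *Kcna6*, a Shaker pore, read 5748 and 7153 in the Arc, 12136 and 14567 in the VMH, 11322 and 12453 in the DMH, and 18742 and 24049.8 in the LH, so that it was lowest in the Arc and highest in the LH, as was *Kcna1*. *Kcna5*, a Shaker pore best known from heart and smooth muscle, ran the other way, with 2722 and 2798 in the Arc, 1017 and 1459 in the VMH, 1028 and 1019 in the DMH, and 1305 and 947 in the LH. Arc minus LH was -1.73 for *Kcna6* (limma adjusted p = 0.00685) and 1.31 for *Kcna5* (adjusted p = 0.0249), and the second probe of each gene was called in the same direction (adjusted p = 0.0452 and 0.0116). Without Arc1, none of these 4 pairwise calls held (0.0631 to 0.174). Without Arc2, that of the first *Kcna6* probe held and the other 3 did not (0.0778 to 0.186). The brighter *Kcna5* probe and the second *Kcna6* probe also lost it without DMH1, DMH2, or LH2 (0.0522 to 0.0888), the second *Kcna6* probe without LH1 (0.0626), and both with no scaling between arrays (0.162 and 0.102). The F-test call of *Kcna5* held in 2 of the 8 fits without 1 array for the brighter probe, being lost without any 1 Arc, VMH, or DMH array (0.0595 to 0.217), and that of *Kcna6* held in 2 of 8 (0.0539 to 0.129 without an Arc, VMH, or DMH array).

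The second Shaker cluster, *Kcna3*, *Kcna2*, and *Kcna10*, likewise has no other protein-coding gene within it. *Kcna3*, known from immune cells as well as neurons, read 683 to 900.0 over the 8 arrays and was not called, unlike its neighbor *Kcna2*. *Kcna4*, the rapidly inactivating Shaker pore, and *Kcna7*, a pore of muscle, were also not called, at 160817 to 246656 and 14734 to 25710.3. The second *Kcna7* probe was well above background on no array.

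*Kcnc1*, a pore of the Shaw family, whose channels let neurons fire fast, was lower in the Arc than in the LH with 1 of its probes. It has 3 probes, of which the dimmest read 316 and 349 in the Arc, 1091 and 966 in the VMH, 582 and 782 in the DMH, and 1736 and 1559.9 in the LH. Its nuclei did not overlap, and Arc minus LH was -2.31 (SE 0.22, limma adjusted p = 0.00252) and Arc minus VMH -1.63 (adjusted p = 0.00935), the latter being lost without any 1 of the Arc or VMH arrays (0.0525 to 0.0839). The other probes of *Kcnc1* disagreed with it in part. One read 4012 and 4275 in the Arc and 7657 and 7915 in the LH (F-test adjusted p = 0.17), and the other 1678 and 1768 in the Arc and 1250.2 and 1352 in the LH (F-test adjusted p = 0.315).

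*Kcnc2*, another Shaw pore, was dim in the VMH instead. It read 185 and 66.9 in the Arc, 28.8 and 56.4 in the VMH, 218 and 292 in the DMH, and 236 and 231 in the LH. It missed the threshold of the F-test (adjusted p = 0.0511) and the LH exceeded the VMH at least 2.25-fold (limma adjusted p = 0.0386), a call lost without VMH1 (0.21), VMH2 (0.0795), DMH1 (0.0713), DMH2 (0.0713), LH1 (0.0703), or LH2 (0.0586). *Pvalb*, a marker of fast-firing neurons that was among the genes listed for tissue next to the LH, read 5855 and 7396 on the LH arrays. The 5 genes of that list summed to 11629 and 14301 in the LH, 6696 and 8172 in the Arc, 4459 and 5528 in the VMH, and 5979.5 and 5617.5 in the DMH. Their median log2 difference was 1.26 for Arc minus VMH and -0.39 for Arc minus LH. The part of *Pvalb* in these differences was not tested.

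**Figure D3:**
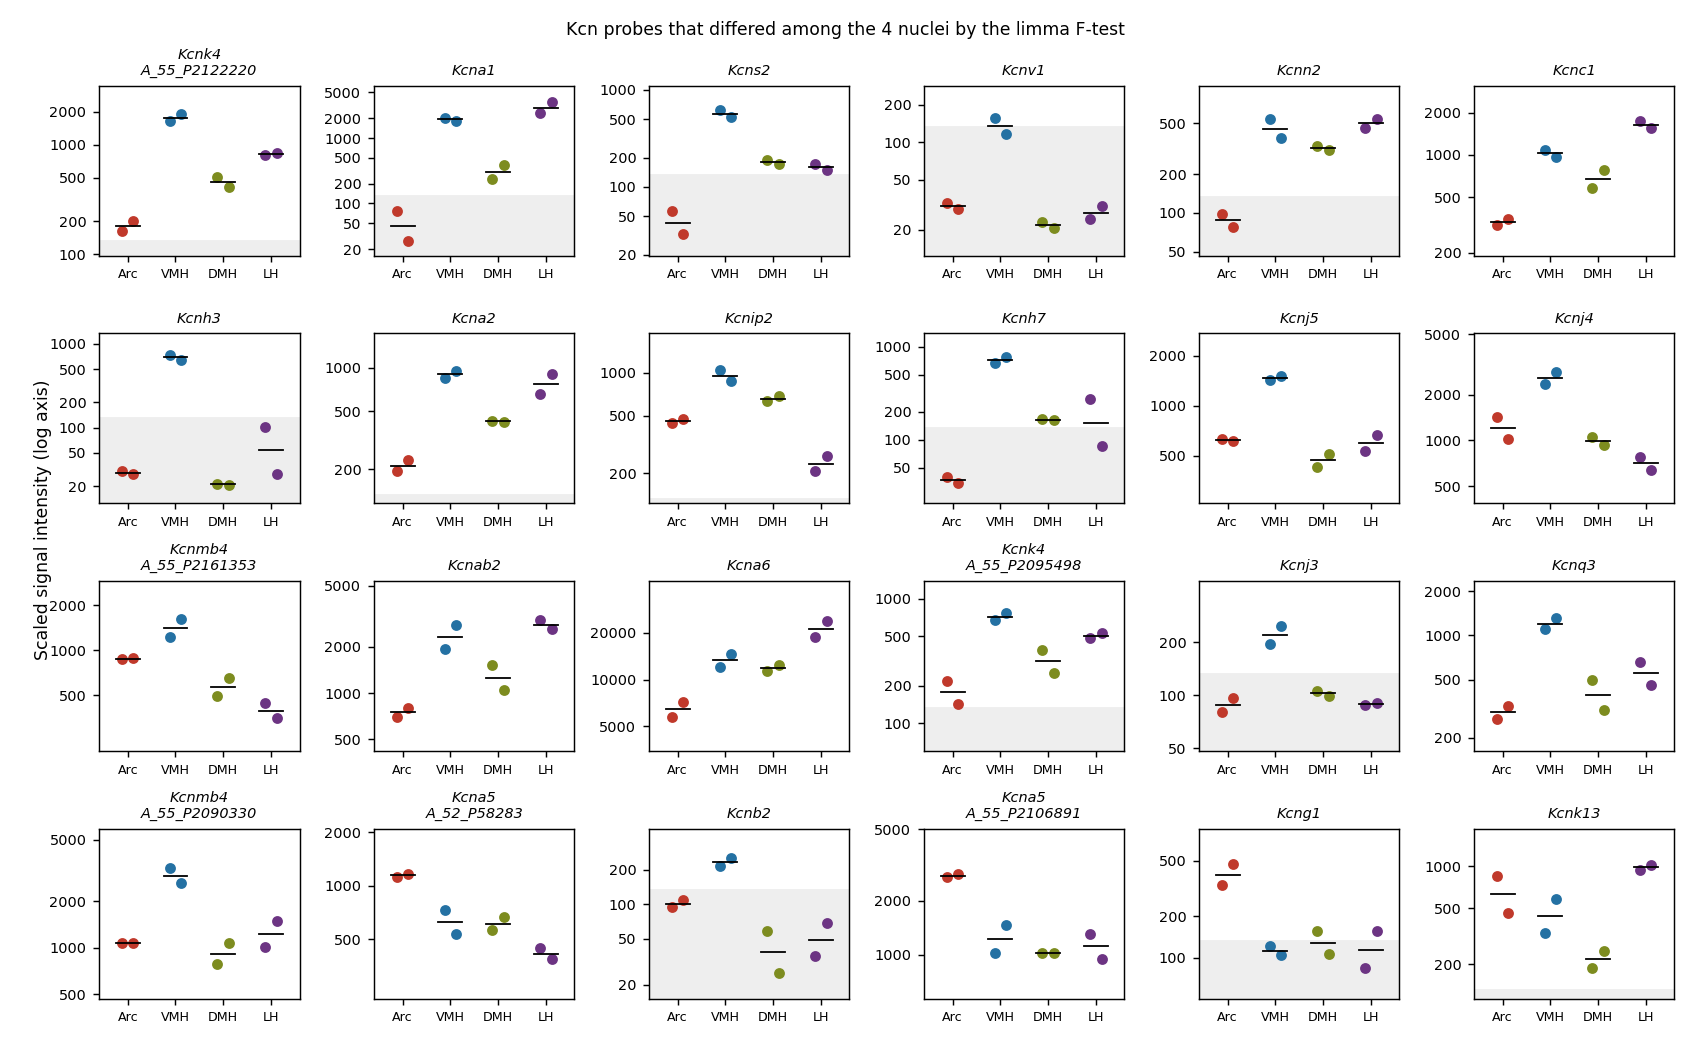
Scaled signal (y axis, log scale, a separate range in each panel) of 24 of the 26 *Kcn* probes called by the F-test, in order of p, on the 2 arrays of each nucleus (points) with their geometric mean (lines). The gray band reaches up to 132, the highest of the lowest measured signals of the arrays. The VMH points lie above all others in the panels of *Kcnk4*, *Kcns2*, *Kcnv1*, *Kcnh3*, and *Kcnj5*. The same is seen for *Kcnh7*, *Kcnip2*, *Kcnj4*, *Kcnmb4*, *Kcnj3*, *Kcnq3*, and *Kcnb2*.

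*Kcnn2*, a small-conductance calcium-activated channel that shapes the afterhyperpolarization, was low in the Arc. It read 99 and 77.4 in the Arc, where neither array was well above background, 535 and 383 in the VMH, 331 and 306 in the DMH, and 457 and 542 in the LH. The Arc was exceeded at least 4.0-fold by the VMH (limma adjusted p = 0.00385), 2.82-fold by the DMH (adjusted p = 0.0201), and 4.40-fold by the LH (adjusted p = 0.00272). The call against the DMH was lost without Arc1 (0.0967), Arc2 (0.162), DMH1 (0.149), or DMH2 (0.112), and the others held without any 1 array. Its relative *Kcnn3* was not called, with 468 and 529.7 in the Arc, 525 and 609 in the VMH, 221 and 404 in the DMH, and 290.1 and 205 in the LH for the brighter probe (F-test adjusted p = 0.131).

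*Kcnma1*, the pore of the large-conductance calcium-activated channel, was not called. Its brighter probe read 2237 to 4085 over the arrays (F-test adjusted p = 0.334), and Arc minus VMH was -0.71 (95% confidence interval -1.31 to -0.11, adjusted p = 0.17). *Kcnmb4*, the beta subunit of that channel in neurons, was called with both of its probes. The brighter read 1066 and 1069 in the Arc, 3268 and 2602 in the VMH, 779 and 1077 in the DMH, and 1007 and 1494 in the LH, and the dimmer 867 and 882, 1219 and 1610.3, 494 and 647, and 442 and 352 in the same order. Both probes had their highest signals on the VMH arrays but were lowest in different nuclei.

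For the brighter *Kcnmb4* probe, VMH minus DMH was 1.67 (limma adjusted p = 0.0349) and Arc minus VMH -1.45 (adjusted p = 0.0306). For the dimmer one, VMH minus LH was 1.83 (adjusted p = 0.0109) and Arc minus LH 1.15 (adjusted p = 0.0341). The F-test call of the brighter probe held in 2 of the 8 fits without 1 array and that of the dimmer in 4, the calls being lost without any 1 of the Arc or VMH arrays (0.0573 to 0.199) and, for the brighter probe, without either DMH array (0.0797 and 0.059). The pairwise calls were lost without either VMH array, and all but VMH minus LH also without either Arc array. VMH minus DMH and Arc minus LH were lost without either DMH array too, and Arc minus LH without LH2. *Kcnmb4* overlaps 2 antisense genes, and signal from the 2 strands was not told apart here.

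*Kcnip2* belongs to the calcium-binding proteins that join the A-type pores of the Shal family and bring them to the membrane. It read 448 and 474 in the Arc, 1038 and 867 in the VMH, 630.0 and 688 in the DMH, and 206 and 264 in the LH, and no nucleus overlapped another. VMH minus LH was 2.02 (SE 0.22, limma adjusted p = 0.0053), DMH minus LH 1.5 (adjusted p = 0.039), Arc minus LH 0.98 (adjusted p = 0.0368), and Arc minus VMH -1.04 (adjusted p = 0.0394). Its F-test call held without any 1 array, with a highest adjusted p of 0.0431. Of the pairwise calls that set the LH apart, Arc minus LH was lost without any 1 array other than LH2 (0.0613 to 0.168), DMH minus LH without any 1 of the Arc, VMH, or DMH arrays (0.0795 to 0.193), and VMH minus LH without VMH1 (0.0503). Arc minus VMH was lost without any 1 of the Arc, VMH, or DMH arrays.

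The Shal pores themselves were not called by the F-test. *Kcnd2* read 3825 to 6310.4, with an Arc minus VMH difference of -0.42 (95% confidence interval -0.96 to 0.13) and VMH minus LH of -0.02 (-0.57 to 0.52). The brighter *Kcnd3* probe read 8779 to 14246, with VMH minus LH at 0.18 (-0.38 to 0.75). *Kcnd1* read 906 and 644 in the Arc and 426 and 270.4 in the LH, with Arc minus LH at 1.17 (limma adjusted p = 0.0495), a call lost without Arc1 (0.266), Arc2 (0.101), LH2 (0.104), or any 1 VMH or DMH array (0.0866 to 0.0868). This member was named after its values were seen.

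Among the channels opened by G proteins, *Kcnj3*, which pairs with *Kcnj5* and *Kcnj6*, was called with its dim probe. That probe read 80.5 and 96.8 in the Arc, 197 and 248 in the VMH, 107 and 99 in the DMH, and 87.8 and 90.4 in the LH, and the VMH exceeded the Arc at least 1.95-fold (limma adjusted p = 0.0161) and the LH 2.05-fold (adjusted p = 0.0199). Its bright probe read 1809 and 2241, 2658 and 2873, 2027 and 1824, and 1846 and 1527 in the same order. The VMH arrays were highest there too, but the probe was not called (F-test adjusted p = 0.226, Arc minus VMH -0.46, 95% confidence interval -0.97 to 0.05). The F-test call of the dim probe (adjusted p = 0.0248) was lost without any 1 of the Arc, VMH, or DMH arrays (0.0614 to 0.144). Both pairwise calls were lost without VMH1 or VMH2 (0.0608 to 0.106), and that against the Arc also without Arc1 (0.13) or Arc2 (0.0742).

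*Kcnj6* and *Kcnj9*, the other G protein-gated pores of neurons, were measured on all arrays and were not called. *Kcnj6* read 419 to 734, with VMH minus LH at 0.18 (95% confidence interval -0.51 to 0.87). *Kcnj9* read 495 to 914, with Arc minus VMH at -0.04 (-0.68 to 0.59).

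*Kcnj4*, a strong inward rectifier that holds neurons at rest, read 1433 and 1024 in the Arc, 2344 and 2821 in the VMH, 1049 and 936 in the DMH, and 780.4 and 641 in the LH. VMH minus LH was 1.86 (SE 0.25, limma adjusted p = 0.0102) and VMH minus DMH 1.38 (adjusted p = 0.0448). Its F-test call (adjusted p = 0.0185) was lost without VMH1 (0.0812) or VMH2 (0.105), as was VMH minus LH (0.0589 and 0.0678), and VMH minus DMH was lost without any 1 of the Arc, VMH, or DMH arrays (0.0709 to 0.245) and with no scaling between arrays.

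*Kcnj11*, the pore of the neuronal ATP-sensitive channel, differed between its 2 probes. One probe read 559 and 568 in the Arc, 525 and 645 in the VMH, 762 and 877 in the DMH, and 2247 and 1169 in the LH, with Arc minus LH at -1.52 (limma adjusted p = 0.032) and VMH minus LH at -1.48 (adjusted p = 0.0492). The other, brighter probe read 1003 and 1398, 2118 and 1572, 1743 and 1268, and 1448 and 830.4 in the same order, and was called in no comparison, with Arc minus LH at 0.11 (95% confidence interval -0.72 to 0.94). Neither probe was called by the F-test. The first call was lost without any 1 array other than LH1 and LH2 (0.0591 to 0.168), and the second without any 1 array other than LH2 (0.0659 to 0.243).

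*Abcc8*, the sulfonylurea receptor that completes this channel, was lower in the Arc. One probe read 395 and 438 in the Arc, 1279 and 1264 in the VMH, 969 and 1117 in the DMH, and 1238 and 1684 in the LH, and Arc minus VMH was -1.61 (limma adjusted p = 0.00981), Arc minus DMH -1.32 (adjusted p = 0.0491), and Arc minus LH -1.79 (adjusted p = 0.00528). The second probe was called lower in the Arc than in the VMH (adjusted p = 0.0479) and the LH (adjusted p = 0.022).

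*Kcnq3*, a pore of the M-current channels, was lower in the Arc than in the VMH. It read 271 and 330.1 in the Arc, 1102 and 1302 in the VMH, 497 and 309 in the DMH, and 659 and 461 in the LH, so that both VMH arrays lay above all others. Arc minus VMH was -2.00 (SE 0.31, limma adjusted p = 0.0138). The F-test call of *Kcnq3* (adjusted p = 0.0287) was lost without Arc1 (0.116), Arc2 (0.0934), VMH1 (0.118), or VMH2 (0.142), as was the pairwise call (0.0722 to 0.11). *Kcnq5*, another neuronal member of the family, had no tested probe.

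**Figure D4:**
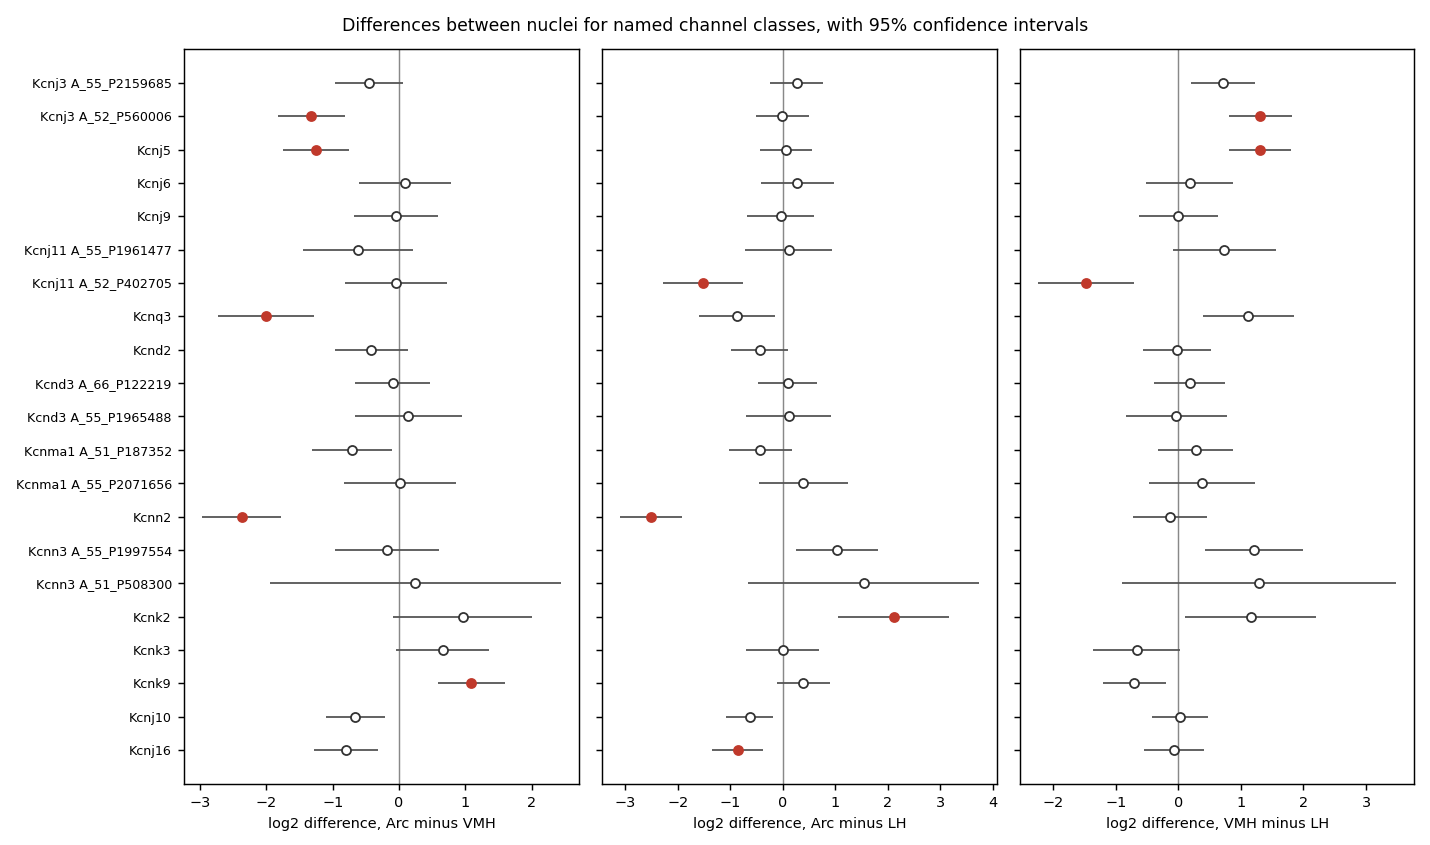
log2 difference between nuclei (x axis) with its 95% confidence interval, for Arc minus VMH, Arc minus LH, and VMH minus LH, for tested probes of channels from a list named whether or not they were called (rows). Filled red points have an adjusted p under 0.05. *Kcnn2*, which was not well above background in the Arc, and *Kcnq3* lie well below 0 for Arc minus VMH, the probes of *Kcnj11* lie on different sides of 0 for Arc minus LH and for VMH minus LH, and *Kcnj6*, *Kcnj9*, and *Kcnd2* have intervals across 0 in each panel.

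Higher signals in the Arc were called for 3 probes against the VMH (2.4% of all probes), 0 against the DMH (0.533%), and 8 against the LH (3.32%). *Kcng1*, a silent subunit, read 333 and 474 in the Arc, 121 and 105 in the VMH, 156 and 106 in the DMH, and 84.4 and 156 in the LH, with Arc minus VMH at 1.82 (limma adjusted p = 0.0341) and Arc minus LH at 1.79 (adjusted p = 0.0273). It entered the tests through the Arc alone. Its F-test call (adjusted p = 0.0492) was lost without any 1 of the Arc, VMH, or DMH arrays (0.0777 to 0.267). The pairwise calls were lost without either Arc or VMH array (0.0558 to 0.189), Arc minus VMH also without either DMH array (0.0548), and Arc minus LH without LH1 (0.0513). Its second probe was well above background on no array.

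Pairwise calls among the other tandem-pore channels ran in both directions. *Kcnk1*, a weakly conducting leak channel, read 623 and 506 in the Arc, 732 and 799.7 in the VMH, 605 and 762 in the DMH, and 1300.1 and 1099 in the LH. Arc minus LH was -1.09 (limma adjusted p = 0.0301), as for *Kcnk4* lower in the Arc, and the call was lost without any 1 of the Arc or VMH arrays or without LH1 (0.0586 to 0.155). This member was named after its values were seen.

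*Kcnk9*, an acid-sensitive leak channel, read 14658 and 15636 in the Arc, 7341 and 6895 in the VMH, 12344 and 11910.5 in the DMH, and 9956 and 13426 in the LH, and was lowest on the VMH arrays. Arc minus VMH was 1.09 (limma adjusted p = 0.0334). *Kcnk2*, a leak channel opened by stretch and lipids like *Kcnk4*, read 769 and 704 in the Arc, 294 and 489.6 in the VMH, 258 and 334 in the DMH, and 265 and 109.5 in the LH, with Arc minus LH at 2.11 (adjusted p = 0.0314). Neither passed the F-test (adjusted p = 0.0741 and 0.0937). The call of *Kcnk9* was lost without Arc1 (0.166), Arc2 (0.177), VMH1 (0.152), VMH2 (0.143), DMH1 (0.0703), or DMH2 (0.0703), and that of *Kcnk2* without Arc1 (0.171), Arc2 (0.124), DMH1 (0.0575), or DMH2 (0.0575).

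*Kcnk13*, a tandem-pore channel found in microglia as well as neurons, passed the F-test narrowly (adjusted p = 0.0497), with 847 and 466 in the Arc, 331 and 584 in the VMH, 189 and 249 in the DMH, and 932 and 1025 in the LH. The call was lost in each of the 8 fits without 1 array, with an adjusted p of 0.0654 to 0.18, and none of its 6 pairwise comparisons was called. *Kcnk3*, the close relative of *Kcnk9*, was not called, at 682 to 1507 over the arrays (F-test adjusted p = 0.392).

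The inward rectifiers of astrocytes were lowest on the Arc arrays. *Kcnj16* read 3253 and 3041 in the Arc, 5379 and 5526 in the VMH, 4647 and 5222 in the DMH, and 5133 and 6359.5 in the LH, with Arc minus LH at -0.86 (limma adjusted p = 0.0454), a call lost without any 1 array other than LH1 (0.0796 to 0.187). Its partner *Kcnj10* read 3961 and 4316 in the Arc and 5096 to 6765 elsewhere and was not called, Arc minus LH being -0.63 (95% confidence interval -1.07 to -0.18, adjusted p = 0.088). Both Arc arrays lay below the other 6 for both genes. The 9 astrocyte markers summed to 79810.5 and 89141 in the Arc, 103684 to 115706 in the VMH, 95750 to 102799 in the DMH, and 135034 to 136844 in the LH, with 3 of the 9 called by the F-test. *Fgfr3* and *Slc1a2* were lowest in the Arc, but *Gfap* was highest there, at 1367 and 1666 against 278 to 849 elsewhere with 1 probe (Arc minus VMH 2.38, adjusted p = 0.0152), and a second probe was called in the same direction (1.95, adjusted p = 0.0124). The part of these markers in the *Kcn* values was not tested.

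Of 26 listed partner genes of potassium channels, 33 of 39 probes were tested and 9 probes of 7 genes were called by the F-test, against 8.34% of all probes tested. Beside *Abcc8*, *Lgi1*, a secreted protein bound near Shaker channels, was highest in the VMH, at 2921 and 3324 against 1126 to 1925 elsewhere (adjusted p = 0.0297). *Rgs7bp*, which anchors the regulators that speed the closing of G protein-gated channels, read 1184 and 1262 in the Arc and 1850 to 3839 elsewhere (adjusted p = 0.0157), and a second probe was also called (adjusted p = 0.0282).

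Other partners ran differently. *Lrrc38*, an auxiliary subunit of the large-conductance calcium-activated channel, was measured on the Arc arrays alone, at 243 and 379, and so entered the tests through the Arc, and *Lrrc55*, its relative, was lowest in the VMH, at 155 and 131 against 408 to 680 elsewhere (adjusted p = 0.0102). *Dlg2*, a scaffold that binds Shaker channels, was called with both of its probes, with 965 and 1053 in the VMH and 2340 and 2139 in the LH for the brighter (adjusted p = 0.0255). *Rgs6* was highest in the LH, at 401 and 299 against 105 to 231 elsewhere (adjusted p = 0.0223). Without 1 array, 2 to 12 partner probes were called, being 2 without VMH1 or VMH2, 3 without Arc1 or Arc2, and 5 without DMH1.

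*Kcnt2* and *Kcnmb2* had their highest means in the DMH, through which alone their probes entered the tests. *Kcnt2*, a sodium-activated pore, read 221 and 188 in the DMH, with 28.9 and 138 in the Arc, 30.1 and 19.1 in the VMH, and 51.6 and 27.5 in the LH. Neither VMH array measured it, and the difference from the DMH, at least 1.96-fold, did not pass the threshold (limma adjusted p = 0.0978). *Kcnmb2*, a beta subunit that inactivates the large-conductance channel, was well above background on both DMH arrays, at 154 and 162, and on no other array, and it was not called either (F-test adjusted p = 0.348).

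More than 1 probe was tested for 18 genes, which formed 20 pairs. Both probes were called by the F-test in 4 pairs, 1 probe in 4, and neither in 12, and the highest nucleus was the same in 10 of the 20. Both probes were called for *Kcnk4*, *Kcna5*, and *Kcnmb4*, among others.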

How the data were processed

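RNA of the Arc, VMH, DMH, and LH, cut by laser microdissection from 2 mice, was amplified by a whole-transcriptome method, labeled with a platinum-linked dye, and hybridized to 8 1-color Agilent arrays on 1 slide, 2 per nucleus. Spot intensities were read by the authors with Agilent Feature Extraction (11.5.1.1 in the submitters' processing notes, 10.7.3.1 in the file headers), and the deposited processed intensity of the red channel is background-subtracted, detrended, and not scaled between arrays. The labels name Cy3 and the methods Cy5. Amplification and labeling act before the scan, and their effect on single probes cannot be read from these files.

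Arrays were assigned to nuclei by their labels. Spots marked as outliers were dropped (126 to 364 of 59305 per array), spots of a probe averaged, arrays scaled to their 75th percentile (815 to 1239 before scaling), and log2 taken. No spot was saturated. Of 28390 probes with a RefSeq accession, 26762 matched a symbol in GRCm38.p6. Probes entered the tests when the software called them well above background on both arrays of a nucleus, 28894 in all. One limma model (3.58.1, R 4.3.3) of all 8 arrays, with a mean for each nucleus, 4 residual and 3.02 prior degrees of freedom, gave an F-test and 6 pairwise differences, each adjusted by Benjamini and Hochberg over all probes tested. For a probe dim on both arrays of a nucleus, a fold was given as a bound, the mean of the brighter nucleus over, for each dim array, the higher of its lowest measured signal and the probe's own. Intervals are 95% confidence intervals of the fit.

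On simulated data of 28765 probes, probes raised 4-fold in the VMH were called by the F-test in 29% of cases and those raised 2-fold in 0%, with 0 unchanged probes called. Only 100 probes were raised at each size and all others had equal means, whereas 8.34% of the measured probes were called. The adjustment is stricter where fewer probes differ, so these shares do not give the sensitivity of the fit to the measured arrays.

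Members and lists of markers and partner genes were chosen with earlier results of these data known. The genes named were those past the F-test, those called in 1 nucleus against each other nucleus, a list of channels named whether or not they were called, called partner genes, and genes measured in 1 nucleus alone, with the brighter probe described unless only another was called. Alternatives were other scalings, background correction, filters, the value table of the series, the replicate number as a block, other moderation, and each array left out. A one-way test, which the methods name in general but not for the arrays, was also run. Probes named by a non-coding *Kcn* gene (3) were left out. A few *Kcn* genes are in the counts but are not reported here one by one.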

Additional observations from a re-analysis of the deposited data

Results flagged for a closer look

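Probes that did not enter the tests gave signals well above background on single arrays. The probe of *Kcna10*, a Shaker pore, reached 143 and was well above background on 2 arrays. A probe of the M-current pore *Kcnq5* reached 141 on the 1 array, VMH1, on which it was measured. A probe of *Kcnrg*, a regulator that interferes with channel assembly, reached 127 and was measured on 2 arrays. No nucleus had these signals on both of its arrays, so they were compared between no nuclei.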

How the results depend on the processing

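Of 1339 values of the 72 called differences of *Kcn* probes under the alternatives, 926 stayed past the threshold and 413 did not. No value changed direction, but this is no evidence of stability, since several alternatives could not reverse a difference. Other moderation, the block, a fit of only the nuclei compared, and leaving out an array of another nucleus leave a log2 difference as it was. The other alternatives acted on differences already selected for passing the threshold. Throughout, 9 differences stayed past the threshold. Among them were those of *Kcna1*, *Kcnk4* (brighter probe), and *Kcnn2* between the Arc and both the VMH and the LH. The rest were those of *Kcna2* and *Kcns2* between the Arc and the VMH, and of *Kcnc1* between the Arc and the LH. Of the 26 calls by the F-test, 7 held in all 8 fits without 1 array, where the lone array is assumed to vary like the others, 10 held in 4 to 7, and 9 in 0 to 3.

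Counts of called probes moved by over 1.5 times as follows, and the cause was not tested except where fewer arrays or other probes entered the fit. With no scaling between arrays they were 5 for Arc and DMH, 13 for Arc and LH, 3 for VMH and DMH, and 7 for VMH and LH, and the median over all probes shifted, being -0.46 for Arc minus DMH, -0.26 for Arc minus VMH, -0.11 for Arc minus LH, -0.19 for VMH minus DMH, 0.13 for VMH minus LH, and 0.33 for DMH minus LH. Quantile normalization gave 5 for Arc and DMH and 1 for DMH and LH, and normexp 5 for DMH and LH. With no filter they were 14 for Arc and LH, 4 for VMH and DMH, and 0 for DMH and LH, and with probes measured on all 8 arrays 7 for VMH and LH. Raising dim signals gave 5 for DMH and LH. Trended and robust moderation gave 6 for Arc and DMH, 6 for DMH and LH, and 14 partner probes in place of 9. The one-way test called 3 *Kcn* probes after adjustment, in place of 26, and 529 of 28765 probes over all. A fit of only the nuclei compared gave 7 for Arc and LH, 0 for VMH and LH, and 0 for DMH and LH. Over all 28894 probes tested, these fits called 823, 275, and 0 in the same order.

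With the replicate number as a block, the counts were 20 by the F-test, 16 for Arc and VMH, 2 for Arc and DMH, 21 for Arc and LH, 5 for VMH and DMH, 8 for VMH and LH, 0 for DMH and LH, and 5 set apart in 1 nucleus, the calls of *Kcnk4* in the VMH and the Arc and of *Kcnip2* in the LH being the ones absent. The numbers were not shown to pair the arrays, since same-numbered arrays correlated at -0.03 to 0.26 between nuclei.

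Without 1 array the counts were 10 to 31 by the F-test, 6 to 27 for Arc and VMH, 0 to 7 for Arc and DMH, 5 to 24 for Arc and LH, 1 to 14 for VMH and DMH, 1 to 17 for VMH and LH, 0 to 8 for DMH and LH, 1 to 15 set apart in 1 nucleus, and 2 to 12 for partner probes. In each of these fits, the number called by the F-test over all probes moved in the same direction as that of the *Kcn* probes. Signals near background bound what can be said of *Kcnv1*, *Kcnb2*, and the dim probe of *Kcnj3*, and the number of arrays limits all intervals.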
